A study of Homo sapiens with 6 samples.

Results

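ETS transcription factors are a family of DNA-binding proteins that share the ETS domain, a winged helix that recognises the letters GGAA in its binding sites. The PEA3 group (ETV1, ETV4 and ETV5) is switched on by ERK signalling and held down by the repressor CIC. The ternary complex factors (ELK1, ELK3 and ELK4) are phosphorylated by MAP kinases and work with SRF on immediate early genes. ETS1 and its relatives are known in breast cancer for their links to invasion and matrix proteases, and GABPA pairs with a beta subunit to drive housekeeping and mitochondrial genes. The 10 genes described here were ETV4, ETV5, ETV6, ETS1, ETS2, ELK1, ELK3, ELF1, ELF2 and GABPA, of 16362 genes in the count table. ETV5 was chosen by its measured rise after CTI-2 in these same libraries, so its values are a description with no test. The other 9 were taken as members of its family.

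The study compared cells of the breast cancer line MDA-MB-231, per the labels, without an agent (3 control libraries) or with CTI-2 (3 libraries), both at 24 h. The labels give CTI-2 by code name alone, without a dose or a vehicle. Total RNA was converted to amplified cDNA and read on the Oxford Nanopore platform, and the authors deposited read counts per gene and CPM, the count divided by the library total and multiplied by 1000000. Whether each library stands for its own culture is not stated, and p-values measure the spread between these libraries, which may be technical. By its title the series asks about MAPK signalling, metastasis and epithelial-mesenchymal transition.

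Total counts ran from 2349758 to 3929532 in controls and from 2208261 to 3153469 after CTI-2. At these depths 3 counts in a library stand for 0.763 to 1.36 CPM. On the first principal component of log2(CPM + 1), control 2 lay at -4.52, controls 1 and 3 at -24.18 and -24.95, and the CTI-2 libraries between 13.8 and 24.3, so control 2 stood nearest to the treated libraries. The marker check went partly against the label. All 10 listed markers of MDA-MB-231 or mesenchymal cells had at least 3 counts in every library, with a summed level of 1100 to 1190 CPM in controls and 1280 to 1320 CPM after CTI-2. Among them VIM, the vimentin gene commonly described as abundant in this line, stood at only 18.7 ± 0.320 CPM in controls (SD, n = 3). Of 8 luminal markers 7 were in the table. ESR1, GATA3 and CDH1 had at most 2 counts in any library, while ERBB2 had 11 to 42, EPCAM 18 to 40, FOXA1 3 to 9 and KRT19 2 to 16. ERBB2, EPCAM and FOXA1, 3 of the 7, had at least 3 counts in every library. The 7 had a summed level of 25 to 28 CPM in controls and 16.3 to 24.6 CPM after CTI-2. CDKN2A, a gene commonly described as deleted in MDA-MB-231, was at 464 ± 139 CPM in controls against 289 ± 33.2 CPM with CTI-2 (SD, n = 3), which went against the label. The other listed genes commonly described as deleted in this line were also read in every library, CDKN2B with 31 to 59 counts and MTAP with 32 to 50. These went against the label too. Markers of other cell types (4 of 6 in the table, most of their reads from COL1A1) summed to 71.5 to 111 CPM in controls and 74.7 to 79.5 CPM with CTI-2. The identity of the line was not tested, and the cells are called by their label.

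In the PEA3 group, ETV5 had few reads in every library. It had 4, 6 and 5 counts in controls 1 to 3, which is 1.54, 1.53 and 2.13 CPM, and 20, 12 and 10 counts in CTI-2 libraries 1 to 3, which is 6.34, 4.04 and 4.53 CPM. All 3 treated libraries were above all 3 controls. Means were 1.73 ± 0.343 CPM for the controls against 4.97 ± 1.21 CPM with CTI-2 (SD, n = 3). The edgeR fit gave a log2 fold change of 1.58. That was the highest of all 9848 tested genes, a rank not read as a result because ETV5 was chosen for this rise. Counting error alone is wide at this depth. The 95% exact binomial interval was 0.420 to 3.94 CPM in control 1 and 3.87 to 9.80 CPM in CTI-2 library 1, and these touched. In control 3 it was 0.691 to 4.97 CPM, which held the values of CTI-2 libraries 2 and 3. These intervals cover counting error only, because amplified reads without molecular identifiers are not independent molecules.

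ETV5 passed the filter on low counts only through its treated libraries. The filter asked for about 3.60 CPM in at least 3 libraries, and ETV5 reached this in 0 controls and in 3 CTI-2 libraries. Leaving out each library in turn gave log2 fold changes of 1.34 to 1.73, the lowest of them without CTI-2 library 1. ETV5 spans chr3:186046308-186110318 on the minus strand (GENCODE 29, GRCh38). DGKG, a diacylglycerol kinase gene, overlaps it on the same strand and had 3, 3 and 8 counts in controls and 6, 3 and 2 counts after CTI-2. It was below the filter, and any exchange of reads with ETV5 was not tested.

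**Figure D1:**
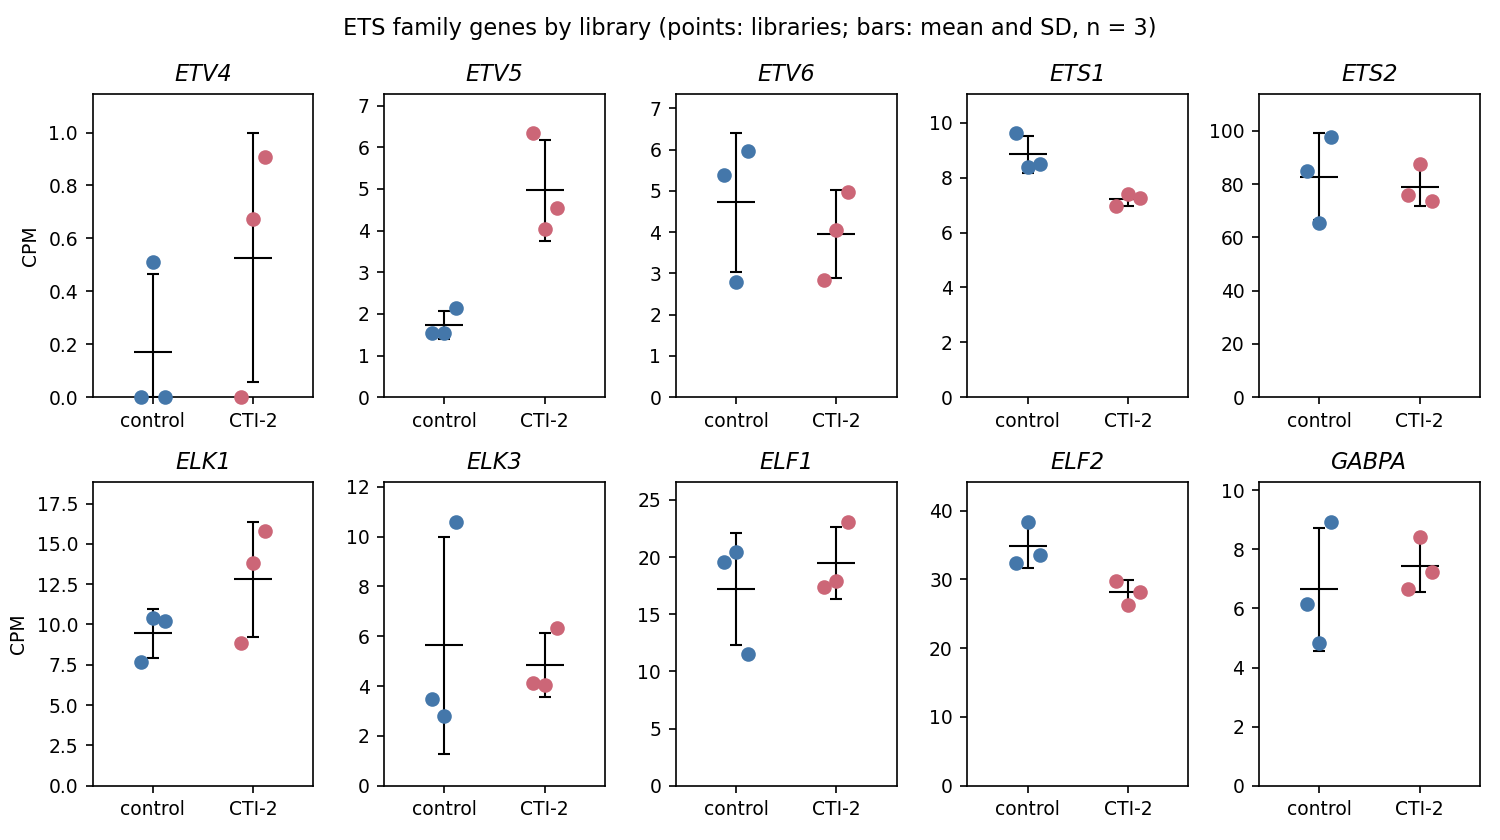
Deposited CPM of the 10 ETS genes in each library (points), with the mean and SD of 3 libraries per group (black bars); each panel has its own linear axis from 0. The ETV5 points after CTI-2 lie between 4.04 and 6.34 CPM, above controls at 1.53 to 2.13, and of the other genes ETS1 and ELF2 alone have groups that do not overlap.

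ETV4, the closest listed relative of ETV5 in the PEA3 group, was not detectable as different at this depth. It had 0, 2 and 0 counts in controls and 0, 2 and 2 counts after CTI-2, all under the limit of 3 counts that a count of 0 allows. No fold change is given, and ETV4 did not enter the fit. The reading limit was 0.763 to 1.28 CPM in the control libraries. ETV4 spans chr17:43527844-43579620 on the minus strand and overlaps DHX8 on the opposite strand. ETV1, the third member of the group, was not analysed here.

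The PEA3 genes are set apart by their regulators, so these were read beside them. CIC, which represses the PEA3 genes, had 6.78 ± 3.03 CPM in controls against 8.39 ± 1.88 CPM with CTI-2 (SD, n = 3; log2 fold change 0.45, edgeR adjusted p = 0.401). COP1 and DET1, parts of a ubiquitin ligase that removes PEA3 proteins, had log2 fold changes of 0.17 and 0.46 (edgeR adjusted p = 0.794 and 0.351). MAPK3, which encodes the kinase ERK1, had a log2 fold change of -0.18 (edgeR adjusted p = 0.658). None of these 4 transcripts passed the threshold, an adjusted p under 0.05 over all 9848 genes in the fit, of which 8.03% passed. For 4 genes, none passing is near that share. Of the 4, DET1 alone had groups that did not overlap, against 28.8% of all tested genes. It had 5.39, 5.85 and 5.53 CPM in controls against 8.24, 7.41 and 6.79 CPM with CTI-2.

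Genes that ERK signalling induces or CIC represses gave few readable members. Of 17 listed genes 15 were in the table and 4 had enough counts to be tested: DUSP4, EPHA2, IER3 and MYC. None passed in edgeR and 1 of the 4 had an unadjusted p under 0.05, near the 23.9% of all tested genes, of which 8.03% passed. These 4 had a median log2 fold change of 0.13, against -0.01 over all tested genes. MYC, a growth regulator, was at 385 ± 45.3 and 399 ± 22.3 CPM (log2 fold change 0.11, edgeR adjusted p = 0.575). The receptor kinase gene EPHA2 was at 23.9, 14.0 and 26.4 CPM in controls against 30.8, 28.3 and 28.5 CPM with CTI-2. Its groups did not overlap, with control 2 the lowest (log2 fold change 0.55, edgeR adjusted p = 0.0605). The feedback genes DUSP6, SPRY1 and SPRY2 had at most 4 counts in any library, so ERK feedback could not be read from them.

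The other 9 members gave no call. ETV4 was below the filter, and of the 8 tested none passed in edgeR, where 8.03% of all 9848 tested genes passed, 3.39% higher and 4.64% lower. Without adjustment 0 of the 8 had an edgeR p under 0.05, against 23.9% over the whole fit. DESeq2, which gave an adjusted p to 5 of the 8, and limma-voom called none of them. Their median log2 fold change was -0.04, with 4 positive and 4 negative. The median size of their change, whatever the sign, was 0.21, against 0.22 over all tested genes. Groups did not overlap for 2 of the 8, against 28.8% of all tested genes, which is near the same share.

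Among ternary complex factors, ELK1 leaned upward without passing. ELK1 links MAP kinases to SRF at immediate early promoters. It had 7.70, 10.4 and 10.2 CPM in controls against 8.88, 13.8 and 15.8 CPM with CTI-2. CTI-2 libraries 2 and 3 were above every control and CTI-2 library 1 was not, so the groups overlapped. The log2 fold change was 0.44 (SE 0.25, edgeR adjusted p = 0.286), with a 95% interval from 0.954-fold to 1.93-fold.

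ELK3, a ternary complex factor that can repress transcription, rested on 9 to 25 counts per library. It had 3.47, 2.80 and 10.6 CPM in controls against 4.12, 4.04 and 6.34 CPM with CTI-2. Control 3 was the highest of all 6 libraries and the other controls were the lowest. The log2 fold change was -0.09 (edgeR adjusted p = 0.919), and without control 3 it was 0.62 (adjusted p = 0.482). Its sign also turned in limma-voom (0.12) and without CTI-2 library 1 (0.0032) or 2 (0.02), so it had no firm direction. ELK3 spans chr12:96194382-96269835 on the plus strand. The third factor of the group, ELK4, had log2 fold change -0.37 (edgeR adjusted p = 0.525).

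SRF, the partner of the ternary complex factors, was at 62.1 ± 11.7 CPM in controls against 61.5 ± 9.87 CPM with CTI-2 (SD, n = 3; log2 fold change 0.07, edgeR adjusted p = 0.820). Of 12 listed targets of SRF and these factors, 10 were in the table and 9 were tested. None passed in edgeR (8.03% of all tested genes), 5 had an unadjusted p under 0.05 (23.9% of all tested genes), and log2 fold changes were below 0 for 7 genes and above 0 for 2. The list's median was -0.53. MCL1, a survival gene, and IER2, an immediate early gene, had log2 fold changes of 0.05 and -0.14. The extremes, named after their values were seen, were NR4A1, a nuclear receptor gene (-1.23, adjusted p = 0.0686), and BTG2, an antiproliferative gene (0.85, adjusted p = 0.0565). NR4A1 had 4.24, 6.36 and 3.83 CPM in controls against 1.59, 2.02 and 2.72 CPM with CTI-2, on 5 to 25 counts.

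ETS1 and ETS2 founded the family. ETS1, which is linked to invasion in breast cancer, had 9.63, 8.40 and 8.51 CPM in controls against 6.98, 7.41 and 7.25 CPM with CTI-2. Every treated library was below every control, on 16 to 33 counts each. The log2 fold change was -0.25 (SE 0.27, edgeR adjusted p = 0.621), with a 95% interval from 0.579-fold to 1.23-fold. The gap between group means, 8.85 ± 0.681 against 7.21 ± 0.221 CPM (SD, n = 3), was larger than the spread between libraries, but it did not pass the test, whose error includes the counting error of so few reads. ETS1 spans chr11:128458761-128587558 on the minus strand.

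ETS2, a close relative of ETS1, had the most reads of the 10 genes, 163 to 260 per library, and so the narrowest interval. It had 85.1, 65.4 and 97.9 CPM in controls against 75.8, 87.6 and 73.8 CPM with CTI-2. The treated libraries all lay inside the range of the controls. The log2 fold change was 0.01 (SE 0.13, edgeR adjusted p = 0.985), and its sign flipped to -0.05 with library totals in place of TMM. The 95% interval ran from 0.840-fold to 1.20-fold, so changes of ETS2 beyond these bounds lie outside it. ETS2 spans chr21:38805307-38824955 on the plus strand.

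Genes of invasion and blood vessels that textbooks link to ETS1 and the PEA3 factors were tested in the same fit. Of 16 listed, 15 were in the table and 9 were tested. In edgeR 1 of the 9 passed, where 8.03% of all tested genes did, and 4 had an unadjusted p under 0.05, where 23.9% did. Log2 fold changes were above 0 for 3 and below 0 for 6. PLAUR, the urokinase receptor gene, rose from 129, 155 and 179 CPM in controls to 212, 193 and 229 CPM with CTI-2 (edgeR log2 fold change 0.50, SE 0.12, adjusted p = 0.00645). PLAUR no longer passed when control 1 (adjusted p = 0.0868) or the third CTI-2 library (0.0563 as adjusted p) was left out. PLAU, which encodes the ligand of that receptor and was named after its values were seen, had 61.2, 55.5 and 60.0 CPM in controls against 34.6, 47.5 and 47.5 CPM with CTI-2 (log2 fold change -0.40, adjusted p = 0.0676). The rest of the 4 with an unadjusted p under 0.05 were ITGA5 (-0.40, edgeR adjusted p = 0.0507) and VEGFA (-0.51, edgeR adjusted p = 0.134). Among these 4, PLAUR alone was higher with CTI-2. For TIMP1, a metalloproteinase inhibitor gene, the log2 fold change was 0.21 (adjusted p = 0.300). The list's median was -0.05. MMP1, MMP3, MMP9 and MMP14, proteases often named as ETS targets, had at most 3 counts in any library. MMP2, a gelatinase gene of the same list, was readable, with 65.9, 56.7 and 103 CPM in controls against 71.3, 75.8 and 57.5 CPM with CTI-2 (log2 fold change -0.05, edgeR adjusted p = 0.889).

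ETV6 is a repressor of the family. It had 5.39, 2.80 and 5.96 CPM in controls against 2.85, 4.04 and 4.98 CPM with CTI-2, on 9 to 14 counts. The groups overlapped, with control 2 the lowest library. The log2 fold change was -0.16 (SE 0.39, edgeR adjusted p = 0.844). Its sign turned without control 3 (0.0048) or without CTI-2 library 1 (0.04). The 95% interval, 0.519-fold to 1.54-fold, is among the widest of the members. ETV6 spans chr12:11649854-11895402 on the plus strand.

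The related factors ELF1 and ELF2 had log2 fold changes of opposite sign, and neither passed. ELF1 had 19.6, 20.4 and 11.5 CPM in controls against 17.4, 17.9 and 23.1 CPM with CTI-2. Control 3 was the lowest library, and without it the log2 fold change went from 0.17 (edgeR adjusted p = 0.674) to -0.05. ELF2 had 32.4, 38.4 and 33.6 CPM in controls against 29.8, 26.3 and 28.1 CPM with CTI-2. All treated libraries were below all controls. Its log2 fold change was -0.28 (SE 0.16, edgeR adjusted p = 0.288), with a 95% interval from 0.659-fold to 1.03-fold, and it kept its sign under all 15 alternatives that gave it a value. ELF1 spans chr13:40932028-41061440 on the minus strand and overlaps WBP4 on the opposite strand (log2 fold change 0.31). ELF2 overlaps NOCT on the opposite strand (0.29), and no source used here says whether reads were counted by strand.

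**Figure D2:**
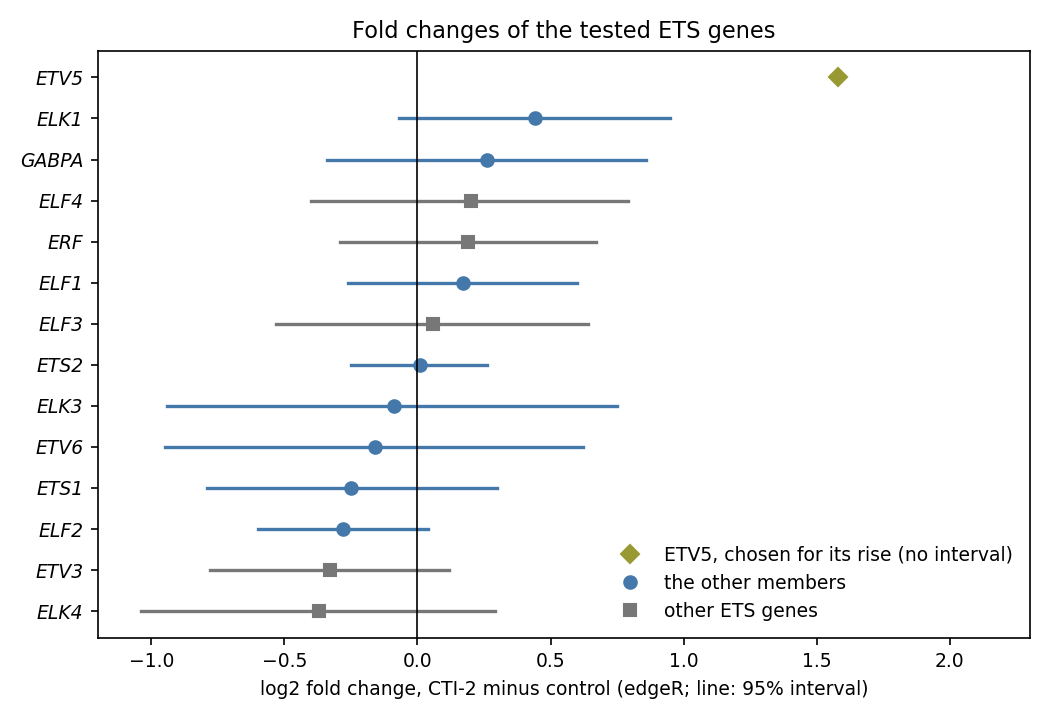
Log2 fold change (CTI-2 minus control, edgeR) of the 9 members in the fit and of 5 other ETS genes, with 95% intervals as lines; ETV5, chosen for its rise, is shown without an interval. The intervals of the other 8 members and the 5 other genes all include 0, and ETS2, with the most reads, has the narrowest of the members.

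GABPA, the DNA-binding subunit of GABP, had 6.16, 4.84 and 8.94 CPM in controls against 6.66, 8.43 and 7.25 CPM with CTI-2. The treated libraries all lay within the range of the controls. The log2 fold change was 0.26 (SE 0.30, edgeR adjusted p = 0.636). Its partner GABPB1 was at 40.8 ± 2.25 CPM in controls against 41.6 ± 0.942 CPM with CTI-2 (SD, n = 3; log2 fold change 0.07, adjusted p = 0.827). GABPA spans chr21:25734570-25772460 on the plus strand and overlaps ATP5PF, an ATP synthase subunit gene on the opposite strand, which had 1734 to 3477 counts per library (log2 fold change 0.28). GABPA itself had 16 to 25 counts, and any exchange of reads between them was not tested.

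A few promoters of the family and of GABP-linked genes hold the letters that ETS proteins prefer. RefSeq promoters (GRCh38.p14), read here as the 250 bases before each annotated start, were searched on both strands for CCGGAAGT, the preferred site of many ETS proteins, which holds the core GGAA. Promoters were matched for 7 of the 10 members, and 1 of these, GABPA, held the site. No promoter was matched for ETV4, ETV5 or ETS1, so theirs were not searched. Of 10 GABP-linked genes with a promoter, 2 held it, COX5B and SDHD, and of 7 other ETS genes ELK4 did. The share was 10% of the 7581 tested genes with a promoter, counted per gene as here, and 3.42% of all 35116 promoters of the same length. With so few genes, nothing is read from the counts in these lists. These 4 are shown as 30 bases each on the strand of the gene, 5′ to 3′, with the site in capitals (ACTTCCGG is its reverse complement).
GABPA: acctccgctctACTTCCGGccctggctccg
ELK4: cagcccctcccCCGGAAGTgacgtgtagcg
COX5B: gaagcccgcccCCGGAAGTccctcctgtct
SDHD: accgcctctcgACTTCCGGttcacccagca
They lie at chr21:25734894-25734923 (GABPA, plus strand), chr1:205632015-205632044 (ELK4, minus strand), chr2:97646014-97646043 (COX5B, plus strand) and chr11:112086784-112086813 (SDHD, plus strand). The site ends 60, 15, 30 and 71 bases before the start in that order. A match is a description of the letters and not evidence of binding.

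None of the 13 GABP-linked genes passed in edgeR, against 8.03% of all tested genes, and 3 had an unadjusted p under 0.05, near the 23.9% of all tested genes. Their median log2 fold change was 0.13, with 10 positive and 3 negative. ATP5F1B, an ATP synthase subunit gene, was at 2180 ± 30.8 and 2230 ± 23.3 CPM (SD, n = 3; log2 fold change 0.08, adjusted p = 0.719). COX5B, a cytochrome oxidase subunit gene whose site is shown above, gave -0.03 on the log2 scale (adjusted p = 0.914). SDHD, a succinate dehydrogenase subunit gene with the same site, had 197, 195 and 191 CPM in controls against 215, 218 and 235 CPM with CTI-2 (log2 fold change 0.24, adjusted p = 0.157). Groups did not overlap for 4 of the 13, near the share of all tested genes.

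Across all tested genes with a RefSeq promoter, 760 of 7581 held CCGGAAGT. Of these 760 genes 73 passed in edgeR, 47 higher and 26 lower, which is 9.61%, against 7.77% of all 7581. The share that rose was 6.18% with the site and 3.39% without it, and 3.67% of all 7581. The share that fell was 3.42% with it, 4.18% without it and 4.1% of all 7581. The median log2 fold change was 0.07 with the site and -0.003 without it. Genes with the site also had more reads, with a median of 36.0 CPM against 24.7 CPM, and the part of expression level in these shares was not tested. These counts moved with single libraries. Without control 2, 120 genes with the site were higher and 40 lower, and 15.9% rose against 9.94% without the site. Leaving out any 1 of the other 5 libraries brought the higher count with the site to between 17 and 24. Without control 3 it was 23 higher and 21 lower (3.03% rose with the site and 1.94% without it), and without CTI-2 library 3 it was 17 and 13 (2.24% and 1.1%). Without control 1, CTI-2 library 1 and CTI-2 library 2 the higher counts were 24, 24 and 21. In that order 3.16%, 3.17% and 2.78% rose with the site, and 1.45%, 1.59% and 1.55% without it. The share that rose was larger with the site whichever library was left out. These fits share most of their libraries and are not independent of each other, and the part of expression level was not tested there either.

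Of the rest of the family, 18 genes were listed, 8 were in the table and 5 were tested: ETV3, ELK4, ELF3, ELF4 and ERF. None passed in edgeR (8.03% of all tested genes) and none had an unadjusted p under 0.05 (23.9%). DESeq2, which gave an adjusted p to 2 of the 5, and limma-voom called none. Log2 fold changes ran from -0.37 to 0.20 with a median of 0.06. ERF, a repressor that ERK controls, was at 13.2 ± 5.33 CPM in controls against 14.5 ± 1.01 CPM with CTI-2 (log2 fold change 0.19, edgeR adjusted p = 0.673). ETV3, also a repressor, had 13.9, 13.5 and 15.3 CPM in controls against 11.4, 10.8 and 10.4 CPM with CTI-2. Its groups did not overlap (log2 fold change -0.33, edgeR adjusted p = 0.381). ELF3, an epithelial member, was at 7.19 ± 1.31 and 7.17 ± 1.28 CPM (SD, n = 3; log2 fold change 0.06, adjusted p = 0.937). ETV2, ETV7 and SPIB were below the filter, with at most 14 counts in any library.

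**Figure D3:**
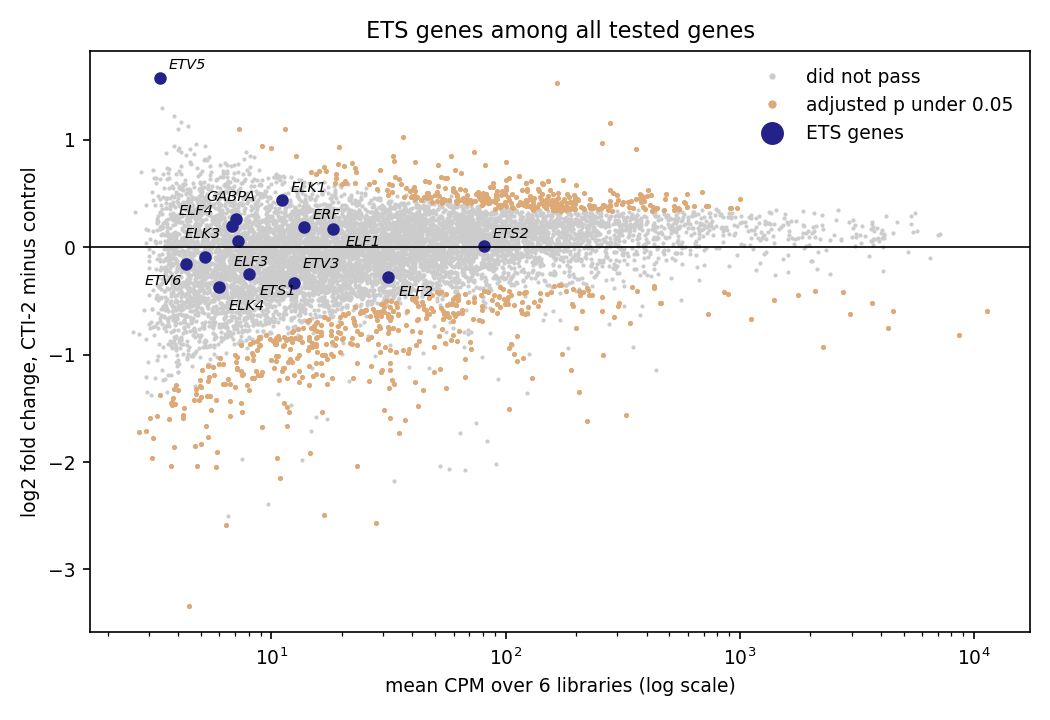
Log2 fold change (CTI-2 minus control, edgeR) against mean CPM over 6 libraries (log axis) for all 9848 tested genes, with those under an adjusted p of 0.05 in orange and the 14 tested ETS genes in dark blue. Apart from ETV5 at 1.58, the ETS genes lie between -0.37 and 0.44, among genes that did not pass.

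Most partners and regulators of ETS proteins did not pass. Of 25 listed genes 24 were tested, with a median log2 fold change of 0.06, and log2 fold changes were above 0 for 13 and below 0 for 11. In edgeR 1 of the 24 passed, higher with CTI-2, against 8.03% of all tested genes, and 4 had an unadjusted p under 0.05, against 23.9%. Groups did not overlap for 3 of the 24, against 28.8% of all tested genes.

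Over the 5 lists of partners, regulators and targets together, with each gene counted once, 2 of 59 tested genes passed in edgeR, both higher. That is 3.39%, below the 8.03% of all tested genes. At an unadjusted p under 0.05 there were 17 of the 59, above the 23.9% of all tested genes. Without control 2 the count was 10 of 58, where 957 of all 9995 tested genes were higher and 653 lower. Without control 1 it was 0 of 60, where 150 of all 10261 were higher and 303 lower. It was 4 without control 3, where 180 of all 10227 were higher and 372 lower. It was 1 without CTI-2 library 3, where 113 of all 10460 were higher and 287 lower. With all libraries, 334 of 9848 were higher and 457 lower. The count in the lists thus did not always move with that over all genes, as it rose without control 3 while the latter fell.

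**Figure D4:**
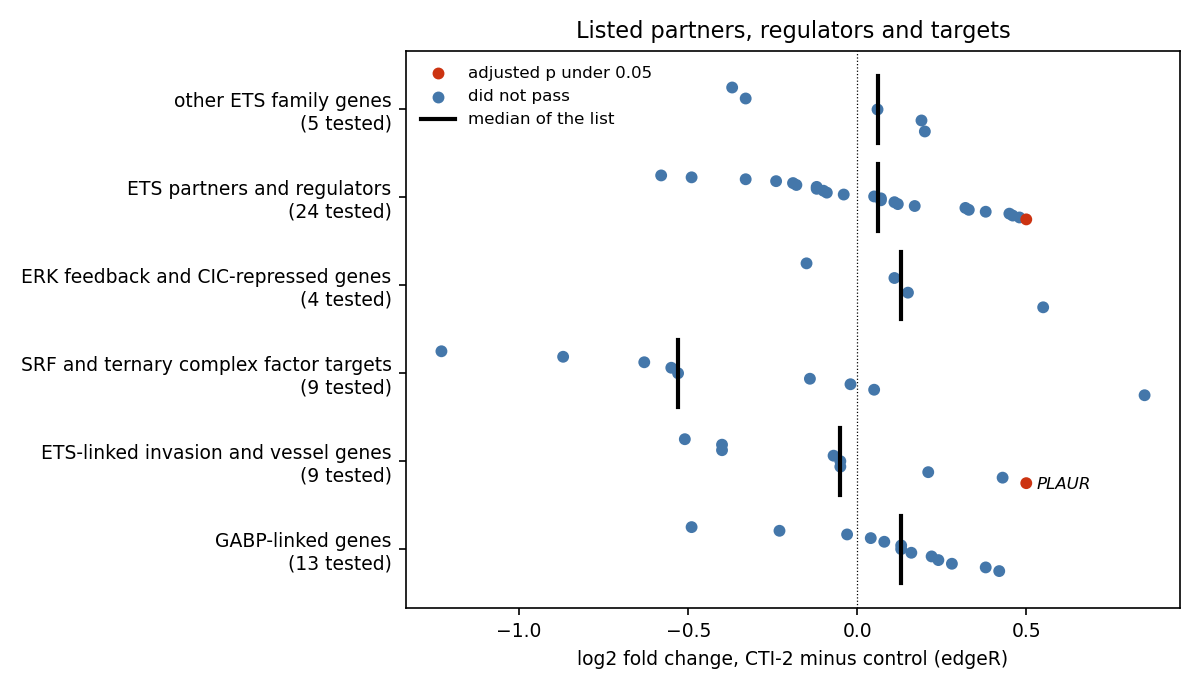
Log2 fold change (CTI-2 minus control, edgeR) of each tested gene of the 6 lists (points, spread vertically for display), with each list's median as a black bar. The 2 genes under an adjusted p of 0.05 are in red, PLAUR with its name at 0.50, and the medians run from -0.53 to 0.13.

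The profile of ETV5 was compared with other genes as a description. Among 9722 genes with a mean of at least 10 counts, the 3 with the highest Pearson r to ETV5 on log2(CPM + 1) over the 6 libraries were CIAO2A (0.991), an iron-sulfur protein assembly gene, KANSL2 (0.990), which encodes part of a histone acetyltransferase complex, and PUM3 (0.987), an RNA-binding protein gene. In all, 178 genes had r over 0.9. CIAO2A went from 210 ± 1.79 to 231 ± 3.82 CPM (SD, n = 3), a far smaller relative change than that of ETV5. The likeness is thus one of shape over the 6 libraries and not of size. That shape includes the gap between the groups, for which ETV5 was chosen. The points share libraries and their depth, and the ETV5 values rest on 4 to 20 counts.

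The 10 ETS genes together took 171, 155 and 189 CPM in controls against 159, 174 and 172 CPM with CTI-2. The treated sums all lay within the range of the controls. ETS2 alone gave 42.1 to 51.7% of the counts of the 10 genes per library, so the sums rest largely on it. Read counts were not scaled per transcript length, so levels are not compared between genes.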

How the data were processed

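Whole-number read counts per gene were deposited by the authors, and the deposited CPM equal the count over the library total to within 1e-09 CPM for all 16362 genes. Per the submitters' processing notes the aligner was minimap2. The sources used here give no version, build, annotation, counter, filter or use of strand. Groups follow the treatment label. filterByExpr kept 9848 genes, TMM gave the scaling, and edgeR 4.0.16 (robust quasi-likelihood, R 4.3.3) the test, with Benjamini-Hochberg adjustment over these genes and a threshold of 0.05. The SE is the fold change over the root of the F statistic, and 95% intervals use it. In simulated libraries of CTI-2 minus control (9645 genes) the recovery was 32.8% of genes with a 1.5-fold change, 80.6% with a 2-fold change and 98.5% with a 4-fold change. Of the 151 calls 10 were false. The simulation gave all genes a common spread and changed genes drawn at any level. Recovery at the low counts of genes such as ETV6 or ELK3 was thus not measured.

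The members and lists were chosen with earlier results of these data known. The genes named by rule were all members, up to 3 called and the 2 of highest mean count in each list, and the 3 most like ETV5. Some genes of the list of partners and regulators that this rule takes in are not reported here. Others (CIC, COP1, DET1, MAPK3, GABPB1, SDHD and low-count genes among them) were named for their role or after their values were seen. Gene spans are from GENCODE 29 and are given only where the deposited length equals that span, which left out ELK1 and ELF2. Pseudogenes of ELK1, ELF2 and GABPA (ELK1P1, ELF2P3 and GABPAP) are annotated there and could take reads. Libraries of the same group differed by more than sampling noise (chi-square over degrees of freedom from 1.77 to 6.76). The alternatives were DESeq2 1.42.0 and its size factors, library totals, no filter, at least 20 counts in 3 libraries, limma 3.58.1 (voom, log2(CPM + 1) or log2(CPM + 0.5)), a block for the replicate number, each library left out, a threshold of 0.01, and a shorter site or longer window in promoters.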

Additional observations from a re-analysis of the deposited data

How the results depend on the processing

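No member other than ETV5, and none of the other ETS genes, passed under any of the 16 alternatives, although DESeq2 gave an adjusted p to 5 of the 8 members and 2 of the 5 others only. ETV5, whose sign its choice fixes, had a log2 fold change that ran from 1.12 with log2(CPM + 1) to 1.73 without CTI-2 library 2 over the 14 alternatives that gave it a value. It was 1.28 with log2(CPM + 0.5) and 1.34 without CTI-2 library 1. The filter of 20 counts removed it. ETS1, ELK1, ELF2 and GABPA kept their direction in all alternatives that gave them a value. ETS2, at 0.01 as reported, turned to -0.05 with library totals, -0.02 with the filter of 20 counts and -0.05 with both log2(CPM) fits, and to -0.10 without control 2 and -0.07 without CTI-2 library 2. ELK3 turned to 0.12 in limma-voom, to 0.62 without control 3, and to 0.0032 and 0.02 without CTI-2 libraries 1 and 2. ETV6 turned to 0.0048 without control 3 and 0.04 without CTI-2 library 1, and ELF1 to -0.05 without control 3. When each library was left out, the values ran from -0.45 to 0.04 for ETV6, -0.10 to 0.11 for ETS2, -0.45 to 0.62 for ELK3 and -0.05 to 0.39 for ELF1. Of partners, regulators and targets, 2 passed as reported, and 1 with library totals, DESeq2, limma-voom, either log2(CPM) fit or a threshold of 0.01. Without the filter 4 of 78 passed, where 315 of all 16362 tested genes were higher and 567 lower. When a library was left out, 0 to 10 passed. The cause of these shifts was not tested. The site CCGGAAGT stood before 12.4% of called genes with a promoter (10% of all tested genes with one), the shorter CCGGAA before 35.5% (34.3% of all tested), and leaving out each library, an alternative chosen after seeing the data, gave 10.2 to 12.9%. The replicate numbers share only a number: deviations of same-numbered libraries correlated at -0.052, 0.009 and -0.124, and no control library correlated best with its own number. With the replicate block 5 of 59 partners, regulators and targets passed, where 356 of all 9848 tested genes were higher and 586 lower. At 4 to 33 counts per library, ETV5, ETV6, ETS1, GABPA and ELK3 are limited by depth.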
